A study of Homo sapiens with 12 samples.

Results

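The genes described here are the human defensins, taken as the protein-coding genes of the RefSeq annotation of GRCh38.p14 (the assembly that hg38 denotes) whose symbols start with DEFA or DEFB. The rule gave 45 of the 19821 protein-coding genes on chromosomes 1 to 22 and X, of which 6 were alpha-defensins (DEFA) and 39 beta-defensins (DEFB). Chromosome 8 held 25 of them, chromosome 20 held 13, chromosome 6 held 4, chromosome 11 held 2 and chromosome 4 held 1. The values are nucleolus-associated domains (NADs), stretches of DNA that co-purify with nucleoli, in H9 cells, an established human embryonic stem cell line. Nucleolar and whole-cell DNA came from naive H9 cells kept in RSeT medium and from primed H9 cells kept in mTeSR medium, with no treatment, 3 libraries for each of these 4 groups. The authors turned them into 1 list of NAD regions for naive cells and 1 for primed cells, without scores, so no value below has an error across cultures, no test between the states exists, and the read depth is unknown. All cells carried the H9 genome, and no RNA was measured in these lists.

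Defensins are small secreted peptides held together by disulfide bonds, and many of them damage the membranes of microbes. Alpha-defensins are stored in the granules of neutrophils and of Paneth cells of the small intestine. Beta-defensins are made by epithelia, and a large share of them is made in the epididymis, where some coat maturing sperm. The genes arose by duplication and lie in clusters, parts of which are near-identical copies that differ in number between people. Defensin genes belong to differentiated tissues and are not known for a role in pluripotent cells.

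To show sequence at gene starts that fell in a single list, the 250 bases before the start are given for the first 4 such members of chromosomes 6 and 20 by chromosome and position (RefSeq, GRCh38.p14). DEFB114 (chr6:49964165-49964414, minus strand) and DEFB113 (chr6:49969626-49969875, minus strand) had this stretch wholly in naive NADs and not in primed NADs. DEFB125 (chr20:87422-87671, plus strand) and DEFB126 (chr20:142340-142589, plus strand) had it wholly in primed NADs and not in naive NADs, although the body of DEFB125 lay in both lists. Capitals mark the letters TATAAA or CCAAT, searched on both strands.
DEFB114: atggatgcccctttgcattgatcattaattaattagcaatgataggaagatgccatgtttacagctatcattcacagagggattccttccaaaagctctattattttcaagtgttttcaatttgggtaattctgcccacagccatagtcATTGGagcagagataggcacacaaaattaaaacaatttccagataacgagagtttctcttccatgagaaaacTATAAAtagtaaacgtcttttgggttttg
DEFB113: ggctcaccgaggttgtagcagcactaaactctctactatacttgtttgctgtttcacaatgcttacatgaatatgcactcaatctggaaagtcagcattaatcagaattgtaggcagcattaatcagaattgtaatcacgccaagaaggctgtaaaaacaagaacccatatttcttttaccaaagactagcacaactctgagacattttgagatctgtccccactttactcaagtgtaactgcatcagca
DEFB125: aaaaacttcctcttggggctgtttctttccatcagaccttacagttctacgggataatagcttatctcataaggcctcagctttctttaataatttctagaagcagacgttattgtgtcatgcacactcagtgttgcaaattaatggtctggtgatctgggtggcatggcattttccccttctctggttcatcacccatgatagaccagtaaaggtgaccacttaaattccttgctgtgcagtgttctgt
DEFB126: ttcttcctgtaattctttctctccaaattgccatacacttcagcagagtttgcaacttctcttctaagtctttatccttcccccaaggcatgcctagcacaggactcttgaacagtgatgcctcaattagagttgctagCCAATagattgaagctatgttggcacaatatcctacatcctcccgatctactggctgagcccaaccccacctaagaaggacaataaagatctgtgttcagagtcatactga
The stretches are AT-rich. Windows were available for 18 members, of the beta-defensins of chromosomes 4, 6, 11 and 20, and for no alpha-defensin, so what follows does not describe the 45 as a whole. Over these 21 windows, median GC content was 44.0% (range 32.8% to 57.6%), against 58.0% over all 35116 windows of the table, and the median number of CG pairs was 2 against 11. TATAAA was found in 10 of the 21 (47.6%, against 10.7% of all windows) and CCAAT in 6 (28.6%, against 32.0%). These are matches of letters in windows of differing base composition. DEFB110 and DEFB119 have overlapping windows that count separately here, with TATAAA in each window of DEFB110 and CCAAT in each of DEFB119. By the start of the gene (the window at the lowest position where a gene has several), 10 members lay in both lists, 2 in naive NADs only, 5 in primed NADs only and 1 in neither. DEFB121 counts here as primed only, but its other window lay wholly in both lists. The members in primed NADs only by start were all of chromosome 20, 94.5% of which is in primed NADs. The same shares were not computed over all windows.

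Defensin genes lay in naive and primed NADs in nearly equal number, whereas coding genes of like length lay more often in primed NADs. Of the 45, 26 (57.8%) overlapped naive NADs by at least 1 base and 27 (60.0%) overlapped primed NADs. The same holds for 76.8% and 81.8% of all coding genes, which are longer, with a median of 24.5 kb against 3.92 kb for the defensins. Among the 6773 coding genes within the members' range of length (0.663 to 13.7 kb), the percentages were 56.4% in naive and 79.6% in primed NADs. The defensins' naive share was thus near this background and the primed share below it. The gene body was wholly covered for 18 members in naive NADs and for 22 in primed NADs, against 12.6% and 41.8% of all coding genes and 29.0% and 66.1% of those of like length. The median covered share of a member was 62.3% in the naive list and 96.2% in the primed list, against 35.6% and 75.8% over all coding genes and 23.9% and 100% over those of like length.

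By list, 16 defensins (35.6%) lay in both, 10 (22.2%) in naive NADs only, 11 (24.4%) in primed NADs only and 8 (17.8%) in neither. Of all coding genes, 65.2% lay in both, 11.6% in naive NADs only, 16.6% in primed NADs only and 6.57% in neither. Of coding genes of like length, 48.0% lay in both, 8.39% in naive NADs only, 31.6% in primed NADs only and 12.0% in neither. Lying in a single list was thus also common among genes of like length, there mostly in primed NADs. The covered share of the body differed by at least 50 percentage points for 21 members, in 10 of them towards the naive list and in 11 towards the primed list. No such count was made for other coding genes, so it does not set the defensins apart. All region limits here lie on a 10 kb grid, and 40 of the 45 genes are shorter than 10 kb. The members occupied 61 bins of that grid, 28 of them lay within a single bin, and 4 bins were shared by a pair of members: DEFB114 with DEFB113, DEFB106B with DEFB105B, DEFB105A with DEFB106A and DEFB118 with DEFB119. Such pairs are not separate observations. Of the 19 members outside naive NADs, 9 were less than 10 kb from a region, as were 10 of the 18 outside primed NADs.

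**Figure D1:**
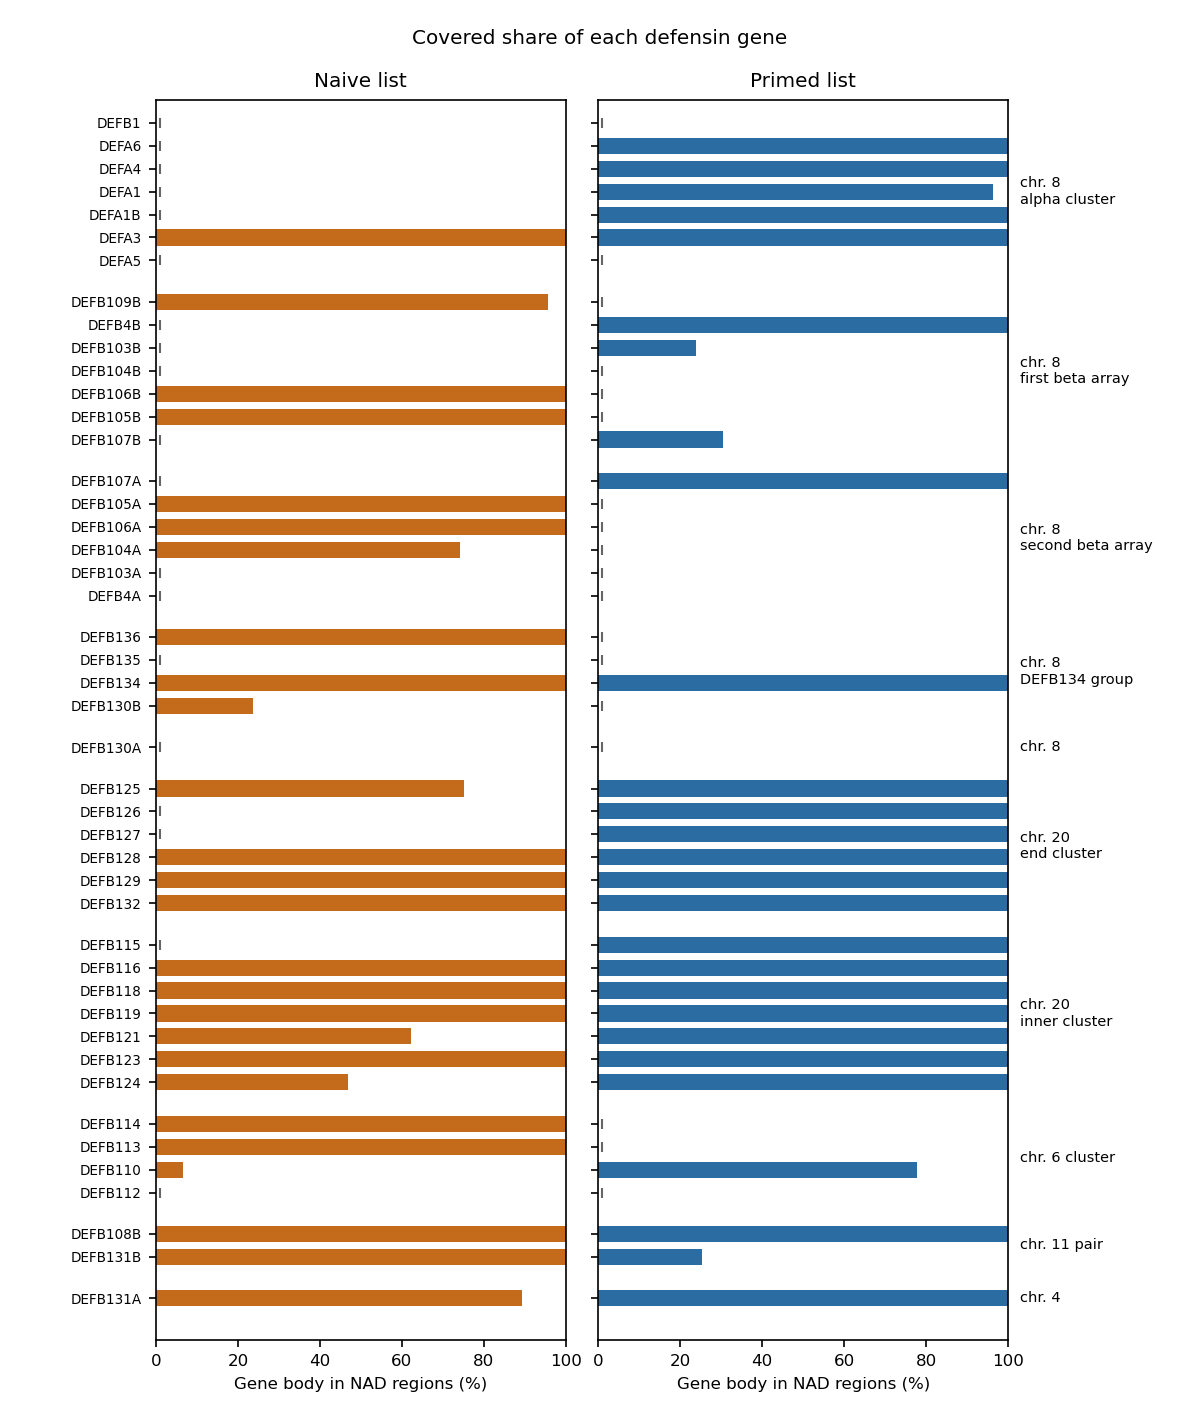
Percent of each defensin gene's body in NAD regions of the naive list (left) and of the primed list (right), by cluster in genome order, with a short tick for genes at 0. Chromosome 20 genes are filled to 100% in the primed panel, while on chromosome 8 the filled genes of the panels mostly differ.

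**Figure D2:**
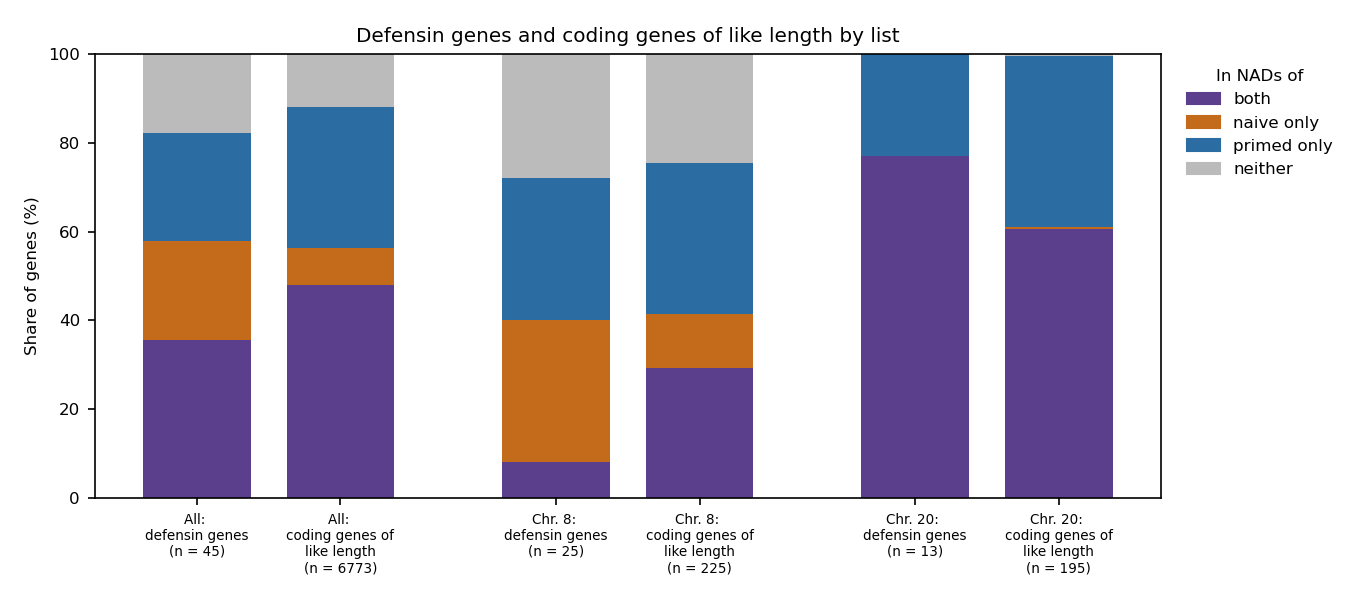
Percent of genes in NADs of both lists, of 1 list only or of neither, for defensin genes and for coding genes of like length, over all chromosomes and on chromosomes 8 and 20. On chromosome 8, 2 of 25 defensins lay in both lists, and on chromosome 20, 10 of 13. The coding genes of like length include the defensins.

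The chromosome 8 genes were split between the lists. Of 25, 10 (40.0%) lay in naive NADs and 10 (40.0%) in primed NADs, yet only 2, DEFA3 and DEFB134, in both. A further 8 lay in naive NADs only, 8 in primed NADs only and 7 in neither. Of the 225 coding genes of this chromosome with like length, 41.3% lay in naive NADs, 63.6% in primed NADs and 29.3% in both, with 12.0% in naive NADs only, 34.2% in primed NADs only and 24.4% in neither. These 225 include the 25 defensins, whose 8 genes in naive NADs only are part of the 27 behind the 12.0%. Of all coding genes of the chromosome, 73.4% lay in naive NADs, 71.6% in primed NADs and 54.6% in both. Over the whole chromosome, naive NADs covered 37.9% of the sequence and primed NADs 33.1%. Clusters below are runs of members less than 200 kb apart, which makes 5 groups on chromosome 8.

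The alpha cluster (6870592 to 7056739, 186.1 kb) was covered mainly by primed NADs. It holds DEFB1, a beta-defensin made steadily by many epithelia, and all 6 alpha-defensins. Naive NADs covered 16.1% of the span and 12.2% of the gene bodies, and primed NADs 59.1% and 55.5%. With clusters split at 1 Mb, which joins this cluster to the beta arrays beyond it, the order turned, to 37.3% of the bodies in naive and 28.0% in primed NADs. Of its 19 bins, 1 was in both lists, 2 in naive NADs only, 10 in primed NADs only and 6 in neither. In the 500 kb on either side, naive NADs covered 34.0% and 42.0%, and primed NADs 43.9% and 36.0%.

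The neutrophil genes of this cluster all touched primed NADs, as did the Paneth cell gene DEFA6. DEFA4 (6935820 to 6938306) and DEFA1B (6996766 to 6999198) had 0% of the body in naive and 100% in primed NADs. DEFA1 (6977649 to 6980092) had 0% and 96.2%. DEFA3 (7015869 to 7018297) was at 100% in both lists, the only alpha-defensin in naive NADs, inside a naive region of 20 kb. DEFA1, DEFA1B and DEFA3 are near-identical copies. The Paneth cell genes differed: DEFA6 (6924697 to 6926076) had 0% in naive and 100% in primed NADs, in a primed region of 30 kb that also held DEFA4, while DEFA5 (7055304 to 7056739) had 0% in both, 13.3 kb from the nearest naive and 5.30 kb from the nearest primed region. DEFB1 (6870592 to 6877936) was also at 0% in both, 30.6 kb from a naive region but 0.591 kb from a primed one. In all, 1 of 6 alpha-defensins lay in naive and 5 of 6 in primed NADs, beside 41.3% and 63.6% of the chromosome's coding genes of like length. All lie along a single stretch of DNA, so they are not separate observations. The nearest coding gene before the cluster, XKR5, had 63.0% in naive and 20.5% in primed NADs. The nearest after it, FAM90A15, a member of a multicopy family, had 0% and 100%.

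The next members form a pair of arrays that hold copies of 6 genes in opposite order, with DEFB109B added in the first. The first (7309535 to 7509311, 199.8 kb) holds DEFB109B, DEFB4B, DEFB103B, DEFB104B, DEFB106B, DEFB105B and DEFB107B. The second (7811720 to 7896716, 85.0 kb) holds DEFB107A, DEFB105A, DEFB106A, DEFB104A, DEFB103A and DEFB4A. DEFB4A and DEFB4B encode beta-defensin-2, which epithelia induce on contact with microbes, and DEFB103A and DEFB103B encode beta-defensin-3 of skin and mucosa. The DEFB104 to DEFB107 genes are known from the epididymis and testis. Naive NADs covered 45.1% of the first array's span and 23.5% of the second's, and primed NADs 40.0% and 21.5%. Of the gene bodies, naive NADs covered 41.8% in the first array and 54.8% in the second, and primed NADs 17.0% and 21.1%.

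No member of either array lay in both lists. DEFB105B and DEFB106B in the first array and DEFB105A and DEFB106A in the second had 100% of the body in naive NADs and 0% in primed NADs. In the second array DEFB104A (7836436 to 7841242) joined them, with 74.2% in naive and 0% in primed NADs, in the same naive region of 20 kb. DEFB107A (7811720 to 7815716), at the edge of its array, had 0% in naive and 100% in primed NADs, and DEFB107B (7495911 to 7509311) 0% and 30.5%. The copies therefore matched in list for DEFB105, DEFB106 and DEFB107. They did not for the rest. DEFB4B (7414855 to 7416863) had 0% in naive and 100% in primed NADs, whereas DEFB4A (7894677 to 7896716) had 0% in both. DEFB103B (7428888 to 7430348) had 0% in naive and 23.8% in primed NADs, against 0% in both for DEFB103A (7881392 to 7882663). DEFB104B (7470308 to 7475082) had 0% in both. It lay 0.307 kb from a naive region and 14.9 kb from a primed one.

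DEFB109B (7309535 to 7320096), at the start of the first array, had 95.6% in naive and 0% in primed NADs. SPAG11B and SPAG11A, beta-defensin-like genes of the epididymis that lie inside the arrays, also fell in different lists: SPAG11B (7447754 to 7463542) had 100% in naive and 0% in primed NADs, and SPAG11A (7848008 to 7863797) 0% and 24.0%. The flanking genes of the arrays were FAM90A20, at 0% in both lists, and PRR23D1, with 100% in naive and 0% in primed NADs, for the first, and PRR23D2 (0% and 74.7%) and ZNF705B (52.4% and 85.9%) for the second. Over all 9 pairs of copies among the members (DEFA1 with DEFA1B, and pairs ending in A and B), 5 pairs had the same list membership and 4 did not. DEFB105 and DEFB106 share a bin in each array, so their matching pairs are not separate observations. Pairs that matched could still differ in primed cover, as DEFB107 (100% and 30.5%) and DEFB131 (100% and 25.3%) did. No such count was made for other genes. Reads from near-identical copies cannot be placed uniquely, how the authors placed them is not given in the sources used here, and the part this plays in these calls was not tested.

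**Figure D3:**
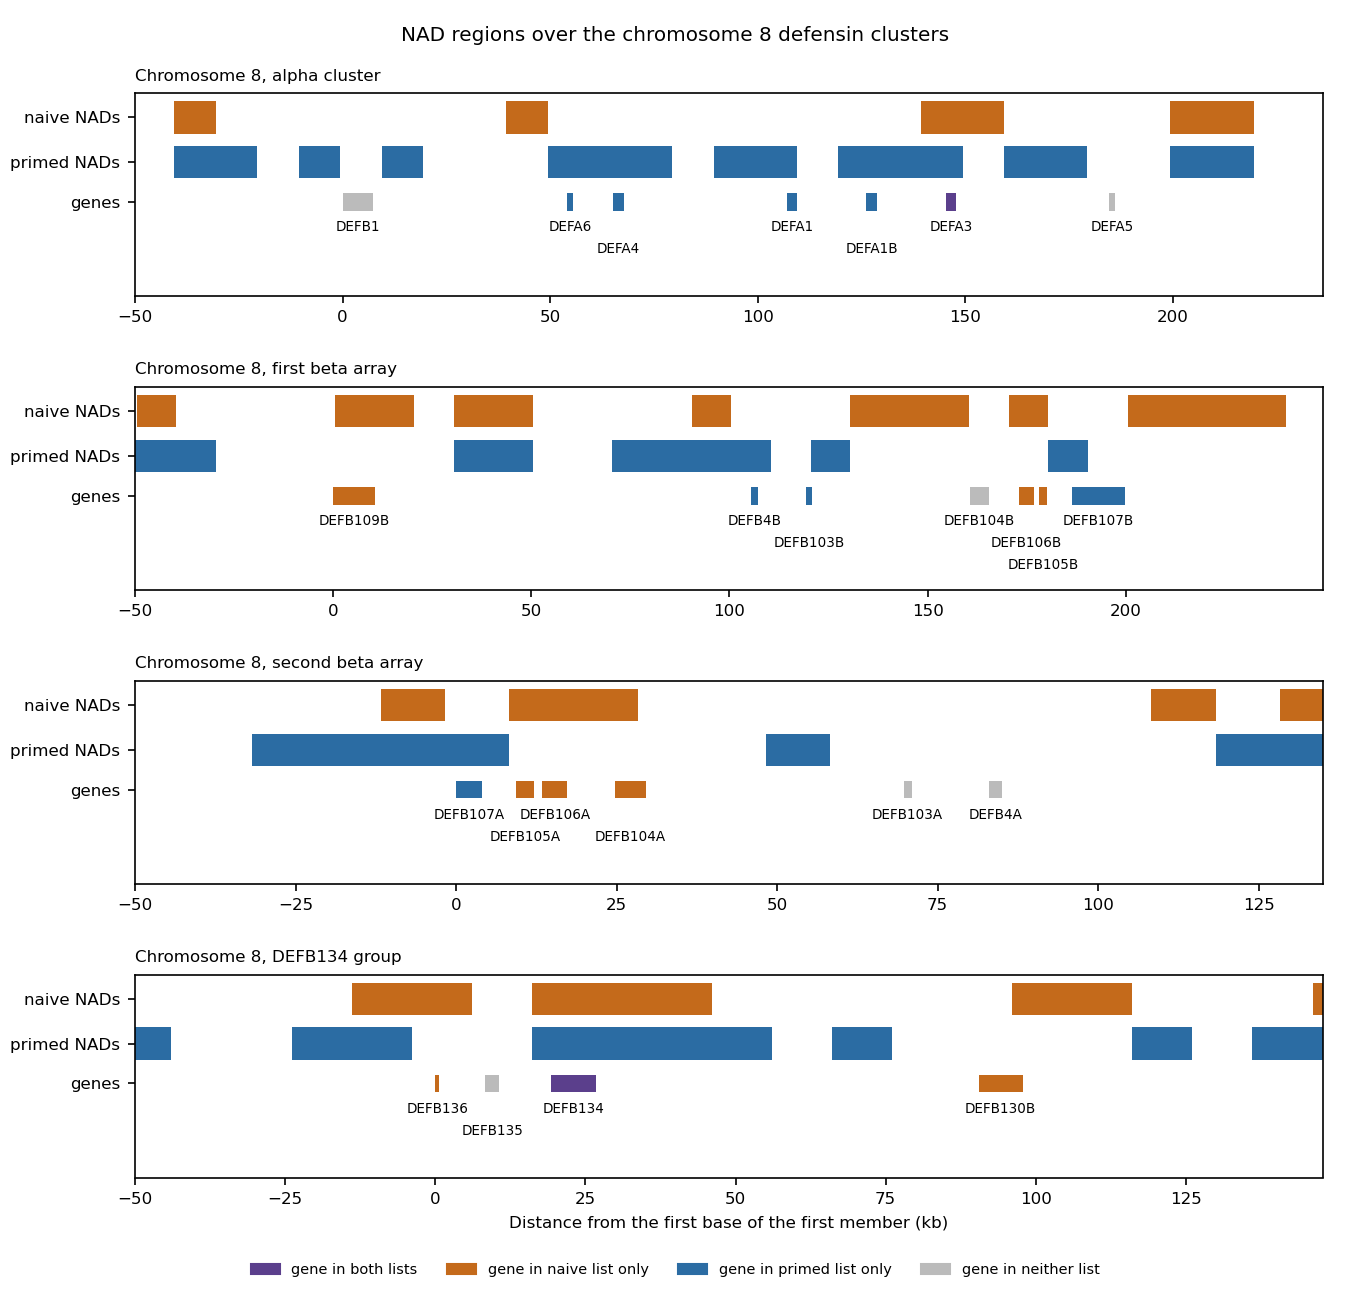
NAD regions of the naive list (top track) and of the primed list (middle track) and defensin genes (bottom track) in 4 clusters of chromosome 8, against distance in kb from the first base of the first member. Of the genes drawn, 2 (DEFA3 and DEFB134) lie under regions of both lists, and the other genes lie under 1 list or neither.

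Further along the short arm, the DEFB134 group (11973937 to 12071747, 97.8 kb) leaned to naive NADs by gene and to primed NADs by span. Naive NADs covered 38.7% of the span and 55.7% of the gene bodies, and primed NADs 51.1% and 42.3%. DEFB136 (11973937 to 11974599), the shortest member, had 100% in naive and 0% in primed NADs. DEFB134 (11993174 to 12000752) had 100% in both lists, under a naive region of 30 kb and a primed region of 40 kb. DEFB135 (11982256 to 11984590), between them, had 0% in both, 2.26 kb from a naive and 5.41 kb from a primed region. DEFB130B (12064389 to 12071747) had 23.7% in naive and 0% in primed NADs, and its copy DEFB130A (12310962 to 12318316), which stands alone, 0% in both. The genes on either side of the group were CTSB, the lysosomal protease cathepsin B (0% in naive and 39.1% in primed NADs), and ZNF705D (2.53% and 59.3%). DEFB130A lies between FAM86B1 (0% and 38.5%) and FAM86B2 (46.6% and 53.4%).

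Chromosome 20 differed in that every defensin lay wholly in primed NADs. All 13 had 100% of the body there, on a chromosome with 94.5% of its sequence in primed NADs and 99.6% of its coding genes touching them, so the primed value does not set these genes apart from their neighbours. In naive NADs lay 10 of the 13 (76.9%), 7 of them wholly. The naive list touched 81.9% of all coding genes of the chromosome, and among the 195 of like length it touched 61.0% and wholly covered 31.8%. Those 10 members lay in both lists, as did 60.5% of the genes of like length. Naive NADs covered 51.6% of the chromosome.

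The end cluster starts 87.7 kb from the tip of the short arm (87672 to 261096, 173.4 kb) and holds genes known from the epididymis. A single primed region of 440 kb (50001 to 490000) covered all 6 of its members, and that region touched 15 coding genes and was 45.5% covered by naive NADs. Naive NADs covered 64.1% of the cluster's span, in 3 regions of up to 70 kb. DEFB128 (187853 to 189711), DEFB129 (227258 to 229886) and DEFB132 (257724 to 261096) had 100% in naive NADs and DEFB125 (87672 to 97094) 75.3%. DEFB126 (142590 to 145751), which encodes a major glycoprotein of the sperm coat, and DEFB127 (157454 to 159163) had 0%, 12.6 kb and 10.8 kb from the nearest naive region. Between the tip and the cluster, naive NADs covered 0% and primed NADs 43.0%. The primed part all came from the region that starts at 50001. Bases without assembled sequence were not taken out of this stretch, and whether reads can map before 50001 was not tested. C20orf96, 9.77 kb beyond the cluster, had 45.9% in naive and 100% in primed NADs.

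The inner cluster of chromosome 20 (31257664 to 31475127, 217.5 kb) had the highest naive share of span and of gene bodies among the clusters of chromosomes 8, 20 and 6. A primed region of 2270 kb (31150001 to 33420000), which touched 44 coding genes and was 55.1% covered by naive NADs, spanned all 7 members. Naive NADs covered 78.2% of the span and 79.3% of the gene bodies. A naive region of 100 kb (31300001 to 31400000) held DEFB116, DEFB118, which encodes a sperm-binding peptide of the epididymis, and DEFB119, each at 100%. The next, of 60 kb (31410001 to 31470000), held DEFB123 at 100%, DEFB121 at 62.3% and DEFB124 (31465471 to 31475127) at 46.9%. DEFB115 (31257664 to 31259632), at the edge of the cluster, had 0% in naive NADs, 7.66 kb from the nearest region. REM1, a small GTPase gene 0.161 kb past DEFB124, had 50.9% in naive and 100% in primed NADs. On the other side the nearest coding gene, LOC124904970, was 442.6 kb away and had 100% in both. In the 500 kb on either side, naive NADs covered 64.5% and 65.0%, and primed NADs 76.0% and 100%.

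The chromosome 6 cluster (49960249 to 50049929, 89.7 kb) holds 4 genes known from the epididymis and testis, 3 of which touched naive NADs and 1 of which touched primed NADs. DEFB114 (49960249 to 49964164), whose start sequence is shown above, and DEFB113 (49968677 to 49969625) had 100% in naive and 0% in primed NADs. They shared a bin inside a naive region of 50 kb (49920001 to 49970000) in which primed NADs covered 0%, and the nearest primed regions were 40.2 kb and 40.4 kb away. DEFB110 (50009138 to 50021994) had 6.71% in naive and 77.8% in primed NADs, the primed share from a single bin. DEFB112 (50042099 to 50049929) had 0% in both, but its start lay 0.071 kb from a region of each list, and 71.6% of the 250 bases before its start lay in both. Of the gene bodies, naive NADs covered 22.4% and primed NADs 39.1%, the primed share coming from DEFB110, the longest of the 4. By span the order was the opposite, with 44.3% in naive and 22.3% in primed NADs, against 34.9% and 26.8% of the chromosome. No bin of the span was in both lists, 4 were in naive NADs only, 2 in primed NADs only and 3 in neither. Of the coding genes of chromosome 6, 75.1% touched naive and 70.2% primed NADs, and of those with like length 53.4% and 70.9%. CRISP1, an epididymal sperm protein gene before the cluster, had 36.8% in naive and 39.9% in primed NADs, and TFAP2D, 663.6 kb beyond it, 38.7% in both.

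The 3 members elsewhere touched both lists. On chromosome 11, DEFB108B (71833200 to 71837710) had 100% in both, and DEFB131B (71878453 to 71884561) 100% in naive and 25.3% in primed NADs. A naive region of 80 kb (71810001 to 71890000) held both genes, and primed NADs covered 75.0% of it. Of the coding genes of the chromosome, 70.2% touched naive and 82.1% touched primed NADs. The coding genes on either side were KRTAP5-11 (100% in naive and 0% in primed NADs) and RNF121 (30.6% and 84.0%). On chromosome 4, DEFB131A (9444414 to 9450666), a copy of DEFB131B, had 89.3% in a naive region of 10 kb and 100% in a primed region of 200 kb, where naive NADs touched 75.5% and primed NADs 52.2% of the chromosome's coding genes. Its neighbours were USP17L30 (100% in naive and 0% in primed NADs) and SLC2A9, a urate transporter gene (37.1% and 96.3%).

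**Figure D4:**
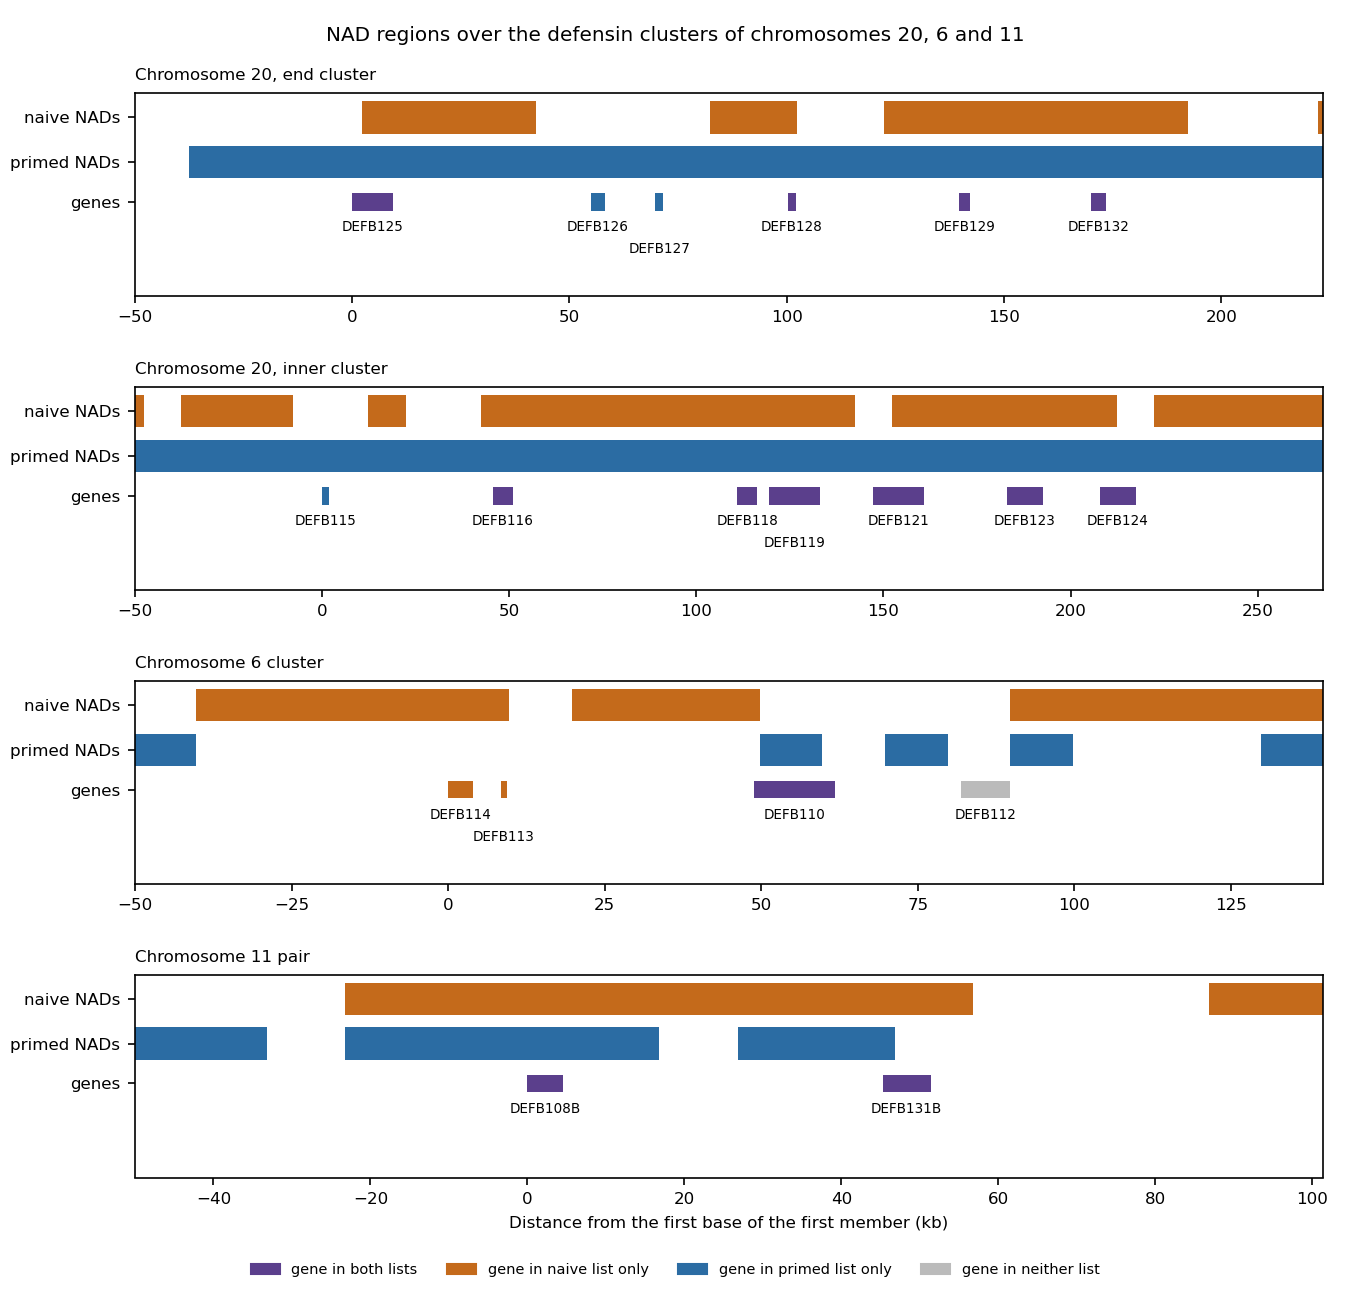
NAD regions of the naive list (top track) and of the primed list (middle track) and defensin genes (bottom track) in the 2 clusters of chromosome 20, the cluster of chromosome 6 and the pair on chromosome 11, against distance in kb from the first base of the first member. A single primed region spans each chromosome 20 cluster, and on chromosome 6 the naive and primed regions between the first and last gene do not overlap.

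The regions that touched defensins were longer than the usual region of their list. There were 16 naive ones, with a median of 25.0 kb and a range of 10 to 100 kb, and 14 primed ones, with a median of 35.0 kb and a range of 10 to 2270 kb. The median over all regions was 10 kb in each list. Regions were picked here by touching a gene, which longer ones do more often. Regions of a single bin made up 12.5% of the naive and 21.4% of the primed ones that touched a member, against 57.7% and 51.3% of the lists.

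The 23 defensin pseudogenes of the same symbol starts, which are not counted among the 45, overlapped naive NADs in 9 cases and primed NADs in 15, with 5 in both, 4 in naive NADs only, 10 in primed NADs only and 4 in neither. Over genes of all kinds, 61.9% lay in naive and 67.9% in primed NADs, so the primed count is near that share and the naive count below it. Those shares are not matched for length. Coding genes as long as the members lay in naive NADs less often than all coding genes (56.4% against 76.8%). On chromosome 8, 1 of 16 pseudogenes, DEFB131E, lay in both lists, beside 29.3% of the chromosome's coding genes as long as the members. No such share was computed for the other pseudogenes of that chromosome. In the alpha cluster, DEFA10P and DEFA7P had 0% in naive and 100% in primed NADs and DEFA11P had the reverse, 100% and 0%. There DEFA9P had 0% in naive and 18.4% in primed NADs, and DEFA8P 0% in both. On chromosome 6, DEFB133 had 100% in naive and 0% in primed NADs, like DEFB114 and DEFB113 next to it.

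Other genes of host defence and of the epididymis were read from 5 lists, to be set against the 76.8% in naive and 81.8% in primed NADs of all coding genes and the 56.4% and 79.6% of those as long as the defensins. Of 25 other antimicrobial peptide and protein genes, 13 (52.0%) lay in naive and 17 (68.0%) in primed NADs, with median covered shares of 17.5% and 100%. GNLY (granulysin of cytotoxic lymphocytes) and HTN1 (a salivary histatin) had 100% in naive and 0% in primed NADs. CAMP (the cathelicidin precursor), ADM (adrenomedullin), DCD (the sweat peptide dermcidin) and RNASE7 (a skin ribonuclease) had 0% in naive and 100% in primed NADs. Of 5 neutrophil granule genes, 2 lay in naive and 5 in primed NADs, with medians of 0% and 100%. ELANE and PRTN3, serine proteases of the granules that hold the neutrophil alpha-defensins, had 0% in naive and 100% in primed NADs. With AZU1 they lie on chromosome 19, 97.3% of which is in primed NADs. MPO, the myeloperoxidase gene, had 0% and 1.32%. Of 17 WAP four-disulfide core genes and neighbours, 13 lay in naive and 17 in primed NADs, with medians of 84.9% and 100%. All but WFDC1 belong to chromosome 20, with its 94.5% in primed NADs, where the 4 found in primed NADs only were WFDC12, PI3, SPINT3 and WFDC10A, each with 0% in naive and 100% in primed NADs.

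Of 12 genes of defensin receptors and processing enzymes, 7 lay in naive and 8 in primed NADs, with medians of 19.4% and 21.9%. The pattern receptors TLR4 (49.2%) and TLR2 (24.1%) were in naive NADs only. The chemokine receptor CCR2 (100%), MMP7 (92.7%), which activates alpha-defensins in mouse Paneth cells, and the protease FURIN (23.2%) were in primed NADs only. CCR6, the receptor of several beta-defensins, and PRSS2, a trypsin gene, lay in neither. Of 18 epididymal and sperm surface genes, 12 lay in naive and 13 in primed NADs, with medians of 57.1% and 57.7%. CRISP3 (100%) and CRISP2 (73.4%), of the same stretch of chromosome 6 as the defensin cluster there, were in naive NADs only, as was SPAG11B. LCN9, LCN12 and CST11 (each 100%) were in primed NADs only.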

How the data were processed

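The authors deposited 1 list of NAD regions for naive and 1 for primed H9 cells, each tied by the labels to 6 libraries (3 of nucleolar and 3 of whole-cell DNA). The labels name a final list per state and the deposited lists are named simple; they were taken as the same lists by cell state, which could not be checked. A list holds chromosome, start and end on hg38, with no score. The submitters' processing notes name SICER, BWA and SAMtools 1.10. For the settings, the handling of replicates and the read depth nothing is given in the sources used here.

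Overlap in bases of each gene body with the regions was computed with numpy 2.4.6 and pandas 2.3.3 under Python 3.11.15, and the code was checked against base-by-base counting on 200 simulated sets. Genes came from RefSeq GRCh38.p14 (58419 genes on chromosomes 1 to 22 and X, scaffolds left out). Any overlap counted as lying in a NAD. Shares over coding genes, also those of like length, include the defensins. Positions are 1-based on hg38. Shares of chromosomes leave out stretches of at least 500 kb with no region and no gene. Groups and replicate numbers came from the labels. No p-value was computed, since each state has a single list.

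The members and gene lists were chosen with earlier results of these data known. By the rule used, every member is named. Positions and shares are given for members that differ by at least 50 percentage points between the lists, that end a cluster or that lie in neither list, with the nearest coding gene on each side. From the other lists, up to 6 genes found in a single list are named, largest difference first and ties in genome order. Alternatives were other overlaps, region lengths, merged gaps, members and cluster limits. RefSeq promoter windows matched 18 of the 45 members.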

Additional observations from a re-analysis of the deposited data

How the results depend on the processing

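The counts of defensin genes in naive and in primed NADs stayed within 1.5 times of 26 and 27 when 50% or 100% of the body had to be covered, with bodies widened by 10 kb, with regions of at least 20 kb, with gaps of 10 or 50 kb merged and with either copy of each pair kept (the other copy was an alternative added after seeing the data). The standing against all coding genes did shift. With 50% of the body required, 51.1% of members were in naive (all coding genes 34.7%) and 53.3% in primed NADs (61.2%). With 100% required the shares were 40.0% (12.6%) and 48.9% (41.8%), beside 29.0% and 66.1% for genes of like length. With gaps of 50 kb merged they were 84.4% (88.7%) and 88.9% (85.4%). The backgrounds in brackets were not matched for length. The counts moved to 12 naive and 14 primed genes with regions of at least 50 kb (26.7% and 31.1% of members, against 11.8% and 50.8% of all coding genes). Without chromosome 8, 20 members remained, of which 16 (80.0%) lay in naive and 17 (85.0%) in primed NADs. Of coding genes outside chromosome 8, 77.0% and 82.2% did, a background not matched for length. Of coding genes of like length on all chromosomes, 56.4% and 79.6% did. Both shares of the 20 members lay above that background, the naive one by more. The like-length share was not computed without chromosome 8, and chromosome 20 holds 13 of the 20. With pseudogenes added the primed count was 42 of 68 genes (61.8%, against 67.9% of genes of all kinds). The naive minus primed count, -1, ran from -7 (with pseudogenes added) to 0 and never turned positive. Over the background genes of the same settings the difference ran from -39.0 to 3.26 percentage points. It was positive there with bodies widened by 10 kb and with gaps of 50 kb merged.

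Shares by cluster depended most on region length and gaps. With regions of at least 50 kb, every chromosome 8 cluster of several genes was at 0% in both lists, chromosome 6 at 0% in primed NADs (also with regions of at least 20 kb) and the chromosome 11 pair at 0% in primed NADs. With gaps of 50 kb merged, the naive share was 100% on chromosome 6, in the first beta array, in the DEFB134 group and in the inner cluster of chromosome 20. The primed share was then 100% in the alpha cluster and the DEFB134 group and 82.5% in the second beta array. With gaps of 10 kb merged it was 92.8% in the alpha cluster. Over all alternatives, 32 of 96 shares moved by over 1.5 times, and naive against primed turned in 7 of 48 pairs. On chromosome 6 the main order, primed above naive, turned with regions of at least 20 or 50 kb, with gaps of 50 kb merged and by span. It turned by span in the DEFB134 group, with gaps of 50 kb merged in the second beta array and, as given above, in the alpha cluster joined to its neighbours. Fewer or longer regions move shares by construction. Leaving out a replicate was not possible, as the lists pool the libraries. No paired analysis was possible because the result comes from no test and the lists carry no replicate number. Depth is unknown, so which genes miss a list for want of reads was not tested.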
